A study of Mus musculus with 10 samples.

Results

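The antioxidant enzymes described here are the products of 10 genes: Sod1, Sod2, Prdx3, Prdx5, Txn2, Txnrd2, Gpx1, Gpx4, Cat and Glrx2. They were chosen by symbol, and every gene probe whose RefSeq accession belongs to one of these symbols was taken, which gave 13 of the 56605 probes on the array. Txn2, Txnrd2 and Glrx2 have 2 probes each, and the other 7 genes have 1. Total RNA of the mouse hippocampus was hybridised to 1-colour Agilent arrays, with 5 arrays of PGC-1αf/f mice and 5 arrays of nPGC-1α mice. PGC-1αf/f mice carry a PGC-1α transgene at Rosa26 behind a floxed PGK-neo-STOP cassette and have no Cre. nPGC-1α mice are littermates with the same transgene plus Eno2-Cre, which is driven in neurons and removes the cassette, so that PGC-1α is expressed together with IRES-eGFP. Both groups are on a C57BL/6 background, are labelled as males of 12 weeks, and were sampled in the basal state without surgery. The comparison asks whether neuronal PGC-1α overexpression goes along with other levels of these enzymes' mRNAs in the unoperated hippocampus.

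Mitochondria leak electrons to oxygen, and the superoxide that forms is handled in steps. The superoxide dismutases turn superoxide into hydrogen peroxide, in the cytosol (Sod1) and in the mitochondrial matrix (Sod2), and the peroxide is then reduced by peroxiredoxins fed by the thioredoxin system, by glutathione peroxidases fed by glutathione, or by catalase in peroxisomes. PGC-1α is a coactivator without DNA binding of its own, which acts through bound factors such as ERRα, NRF1 and GABP and is known to raise several mitochondrial antioxidant genes in cultured cells.

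To show what the promoters of these genes hold of the letters such factors bind, the RefSeq windows of assembly GRCm38.p6 were searched on both strands for 4 motifs, from 250 bases before to 50 bases after each start. All 10 genes had a window, 16 windows in all, of which Glrx2 and Gpx4 have 4 each from alternative starts that overlap in part. The 100 bases before the start are printed for the 3 genes that hold a motif there and for Sod2, the matrix dismutase followed in the study, with the match in capitals:
Sod1, chr16:90220662-90220761, plus strand: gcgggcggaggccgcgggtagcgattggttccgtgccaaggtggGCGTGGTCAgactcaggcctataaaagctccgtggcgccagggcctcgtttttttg
Prdx5, chr19:6910107-6910206, minus strand: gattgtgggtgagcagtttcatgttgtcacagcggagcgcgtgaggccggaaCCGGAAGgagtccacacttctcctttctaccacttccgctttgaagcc
Gpx4, chr10:80053465-80053564, plus strand: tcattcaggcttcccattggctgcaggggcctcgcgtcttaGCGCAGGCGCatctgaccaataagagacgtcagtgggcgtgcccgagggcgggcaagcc
Sod2, chr17:13007739-13007838, plus strand: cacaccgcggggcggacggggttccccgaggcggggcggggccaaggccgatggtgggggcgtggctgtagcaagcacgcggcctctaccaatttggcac

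In Gpx4 the capitals are the NRF1 motif (GCGCA, any base, GCGC), which 4.6% of all 32851 windows hold. In Prdx5 they are the ETS core CCGGAAG bound by GABP, which 8.86% of all windows hold and which also lay in the Txn2 window, at position -119 from the start and so outside a stretch of this length. In Sod1 they are the core of the antioxidant response element, TGACNNNGC, read on the opposite strand and held by 12.4% of all windows. The Prdx5 window holds the ETS core a second time, 19 bases after the start. The ERR half-site AAGGTCA, held by 4.72% of all windows, was in none of the 16 member windows. A match of these letters is a description of the sequence and not a binding site.

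Levels below are log2 signals relative to the array's own 75th percentile, so that 0 is a probe as bright as that percentile, and they compare 1 probe between arrays but not different probes with each other. All 13 probes were well above the local background on all 10 arrays, and no spot was saturated. Spots that the scanner software marked as outliers were left out, which took 2 or 3 values from the probes of Prdx5, Cat and Gpx4 and from 1 Txn2 probe. In whole tissue, fewer cells of a type and less RNA per cell cannot be told apart.

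Several features of the arrays may bear on all values. The labels name neurons as the cell type, but all 8 astrocyte, all 8 oligodendrocyte and all 6 tested microglia markers were well above background on every array, as were all 8 neuronal markers. Ppargc1a itself did not separate the groups: its tested probe A_51_P279038 was at 2.20 ± 0.08 in PGC-1αf/f and 2.20 ± 0.11 in nPGC-1α (SD, n = 5 each). The 95% interval of the difference ran from -0.18 to 0.19. A second probe, A_55_P2745394, kept too few values to be tested, at 1.14 in PGC-1αf/f (n = 3) and 1.11 in nPGC-1α (n = 2). The group names used here are those of the labels. The study measured the PGC-1α protein separately by Western blot, which is not analysed here. Whether either probe lies within the transgene is not given in the sources used here. The Y-linked genes Ddx3y, Kdm5d and Uty were well above background on 4 arrays, which were the first PGC-1αf/f replicate together with replicates 1, 3 and 5 of nPGC-1α, and not on the other 6, although all are labelled male. Replicates 1 to 4 of both groups shared slide 1, and replicate 5 of both groups shared slide 2. The share of gene spots well above background was 74.5% to 81.5% in PGC-1αf/f and 67.2% to 73.4% in nPGC-1α, without overlap. Outlier marks covered 10.5% of the gene spots of PGC-1αf/f replicate 1, 11.6% of nPGC-1α replicate 1 and 0.192% to 4.75% of the others. Oligodendrocyte markers lay higher in nPGC-1α for 7 of 8 genes, with a median difference of 0.32 and none past an unadjusted p of 0.05. Their mean level ranged from 1.12 to 1.82 in PGC-1αf/f and from 1.22 to 2.21 in nPGC-1α. Astrocyte markers lay lower for 7 of 8 genes (median -0.07), microglia markers for 4 of 6 (-0.10) and neuronal markers for 6 of 8 (-0.04). The other marker lists had medians from -0.16 (choroid plexus) to 0.03 (endothelial cells). At an unadjusted limma p of 0.05, 1 microglia marker was lower and 1 of 5 erythroid markers higher, beside 5.03% and 3.18% of all genes. No marker passed an adjusted p of 0.05. The part of these features in the values below was not tested except where stated.

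None of the 13 antioxidant probes passed an adjusted p of 0.05 with limma, and 0.00255% of the 39142 probes tested did (1 probe). None passed an unadjusted p of 0.05 either, beside 11.9% of all probes, of which 3.39% were higher and 8.52% lower in nPGC-1α. No member probe differed by 1.5-fold or more, which 5.2% of all probes did. Of the 9 member probes with a value on every array, 0 had groups that did not overlap, beside 2.74% of the probes with all values. Differences, given as nPGC-1α minus PGC-1αf/f, were below 0 for 10 probes and above 0 for 3. All 13 of their 95% intervals held 0, and 12 lay within 1.5-fold in both directions, so a rise of that size was outside the interval for every gene apart from 1 of the 2 Txnrd2 probes. The median residual SD between arrays of a group was 0.135 for the member probes and 0.226 for all probes tested. Of all probes tested, 28095 had a mean level below 0, beside 1 of the 13 member probes. The shares and SDs given here were not compared at like brightness. With 1 probe per gene, the one with the brightest mean signal, the median difference was -0.09 over the 10 genes, 8 of them below 0, and -0.02 over all 17597 genes, of which 56.7% were below 0.

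**Figure D1:**
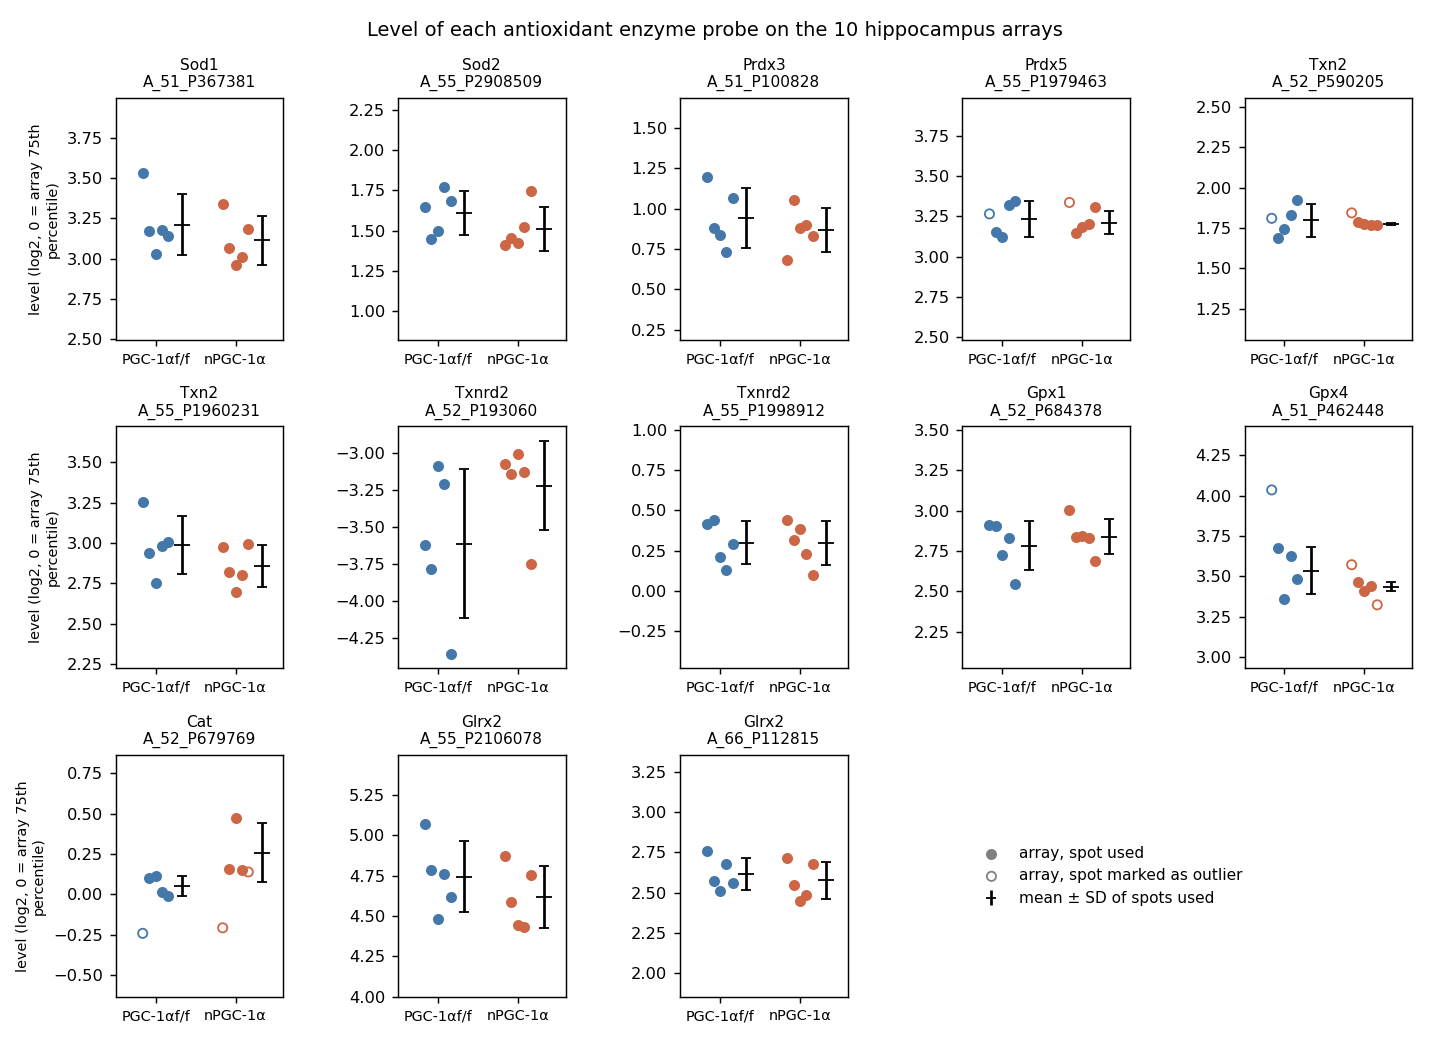
Level of each probe (log2, 0 = the array's 75th percentile) on the 5 PGC-1αf/f arrays and the 5 nPGC-1α arrays, replicates 1 to 5 from left to right in each group. Filled points are spots used, open points are spots marked as outliers and left out, and the bars give mean ± SD of the spots used. Each panel has its own vertical scale, and the groups overlap for every probe except Cat, where they overlap once the open points are counted.

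Sod1, the copper-zinc superoxide dismutase of the cytosol and the intermembrane space, was at 3.53, 3.17, 3.03, 3.18 and 3.14 on PGC-1αf/f replicates 1 to 5. On nPGC-1α replicates 1 to 5 it was at 3.34, 3.07, 2.96, 3.01 and 3.19. Replicate 1 was the highest array of both groups, and the groups overlapped over most of their range. The difference was -0.10 (SE 0.11, limma adjusted p = 0.760), or 0.936-fold with a 95% interval from 0.786 to 1.11.

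Sod2, the manganese superoxide dismutase of the matrix, was at 1.65, 1.45, 1.501, 1.77 and 1.69 in PGC-1αf/f and at 1.41, 1.45, 1.42, 1.52 and 1.74 in nPGC-1α. Of the 5 nPGC-1α arrays, 4 lay below the PGC-1αf/f mean of 1.61 ± 0.13 (SD, n = 5), and replicate 5 lay above it. The difference was -0.10 (SE 0.10, limma adjusted p = 0.710), or 0.934-fold with an interval from 0.802 to 1.09. Sod2 was below 0 in all 27 fits that were run, between -0.16 and -0.06, without passing an unadjusted p of 0.05 in any.

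Prdx3, the peroxiredoxin confined to mitochondria, was at 1.19, 0.88, 0.84, 0.73 and 1.07 in PGC-1αf/f. It was at 0.68, 1.05, 0.88, 0.90 and 0.83 in nPGC-1α. The replicate numbered 1 gave the highest array in PGC-1αf/f and the lowest in nPGC-1α, and the other 8 arrays were interleaved. The difference was -0.07 (SE 0.11, limma adjusted p = 0.809), or 0.950-fold with an interval from 0.802 to 1.12, and it was 0.04 without the 2 arrays numbered 1.

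Prdx5, a peroxiredoxin found in mitochondria, peroxisomes and cytosol, kept 4 values per group. They were 3.16, 3.12, 3.32 and 3.35 on PGC-1αf/f replicates 2 to 5 and 3.14, 3.18, 3.21 and 3.31 on the same replicates of nPGC-1α. The nPGC-1α values lay wholly inside the PGC-1αf/f range. The difference was -0.02 (SE 0.10, limma adjusted p = 0.938), or 0.983-fold with an interval from 0.841 to 1.15.

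Txn2, the mitochondrial thioredoxin that reduces Prdx3 and Prdx5, was read by 2 probes. Probe A_55_P1960231 was at 3.25, 2.94, 2.75, 2.98 and 3.00 in PGC-1αf/f and at 2.98, 2.82, 2.69, 2.80 and 2.99 in nPGC-1α. In nPGC-1α 4 of 5 arrays lay below the PGC-1αf/f mean of 2.99 ± 0.18, and the difference was -0.13 (SE 0.11, limma adjusted p = 0.653). Probe A_52_P590205, with 4 values per group, ranged from 1.69 to 1.92 in PGC-1αf/f and from 1.77 to 1.79 in nPGC-1α. Its difference was -0.02 (SE 0.09, limma adjusted p = 0.940), and both Txn2 intervals held 0.

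Txnrd2, the selenoprotein reductase that recharges mitochondrial thioredoxin with NADPH, was read by probes of unlike precision, whose intervals overlapped. Probe A_55_P1998912 was at 0.42, 0.44, 0.21, 0.13 and 0.29 in PGC-1αf/f and at 0.44, 0.32, 0.39, 0.23 and 0.10 in nPGC-1α. The means were 0.30 ± 0.13 and 0.29 ± 0.14 (SD, n = 5 each), a difference of -0.0040 (SE 0.10, limma adjusted p = 0.991) with arrays of both groups interleaved. The dim probe A_52_P193060 was at -3.62, -3.78, -3.09, -3.21 and -4.36 in PGC-1αf/f and at -3.07, -3.14, -3.01, -3.13 and -3.75 in nPGC-1α. Replicate 5 was the lowest array of both groups on this probe, and 4 of 5 nPGC-1α arrays lay above the PGC-1αf/f mean.

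The difference of A_52_P193060 was 0.39 (SE 0.23, limma unadjusted p = 0.122 and adjusted p = 0.536), or 1.31-fold with an interval from 0.918 to 1.88. It was above 0 in all 27 fits, from 0.20 to 0.53. With the slide as a block the limma unadjusted p was 0.018 and the adjusted p 0.267, on slide 1 alone the difference was 0.34, and on slide 2, with 1 array per group, it was 0.61. Its residual SD of 0.416 was above the 0.135 of the other Txnrd2 probe, so the gene has 1 probe with a narrow interval around 0 and 1 with a wide interval that reaches past 1.5-fold.

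Gpx1, the glutathione peroxidase of cytosol and mitochondria, was at 2.91, 2.91, 2.73, 2.83 and 2.54 in PGC-1αf/f and at 3.00, 2.84, 2.84, 2.83 and 2.69 in nPGC-1α. In nPGC-1α 4 of 5 arrays lay above the PGC-1αf/f mean of 2.78 ± 0.15. The difference was 0.06 (SE 0.10, limma adjusted p = 0.843), or 1.04-fold with an interval from 0.894 to 1.21. Under quantile normalisation it was 0.12 and with the authors' log2 values 0.12, each with an interval that held 0.

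Gpx4, which reduces lipid peroxides in membranes and guards against ferroptosis, kept 4 values in PGC-1αf/f (3.68, 3.36, 3.63 and 3.48 on replicates 2 to 5) and 3 in nPGC-1α (3.46, 3.41 and 3.44 on replicates 2 to 4). The nPGC-1α arrays lay within the PGC-1αf/f range, and the difference was -0.10 (SE 0.12, limma adjusted p = 0.760), or 0.933-fold with an interval from 0.773 to 1.13. With the marked spots kept, PGC-1αf/f replicate 1 stood at 4.04 and the difference was -0.20.

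Cat encodes catalase, which splits hydrogen peroxide in peroxisomes rather than in mitochondria. It was at 0.10, 0.11, 0.01 and -0.01 on PGC-1αf/f replicates 2 to 5 and at 0.16, 0.47 and 0.15 on nPGC-1α replicates 2 to 4. The 3 nPGC-1α values lay above all 4 PGC-1αf/f values. The difference was 0.21 (SE 0.12, limma adjusted p = 0.544), or 1.15-fold with an interval from 0.948 to 1.40. The exact two-sided permutation test gave p = 0.0286, the smallest that 35 splits allow, and the exact Mann-Whitney test gave p = 0.0571. Exact permutation tests were run on all 13 probes, and the other 12 gave no p under 0.05. The marked spots read -0.24 on PGC-1αf/f replicate 1 and -0.21 and 0.14 on nPGC-1α replicates 1 and 5, and with them the groups overlapped and the exact permutation p was 0.278. Replicate 3, the highest nPGC-1α array for Cat, was also the array with the most choroid plexus signal, and PGC-1αf/f replicate 4, which had the next most, read 0.01 for Cat. The same nPGC-1α replicate 3 had the highest mean erythroid marker level (-1.01) and the lowest share of gene spots well above background (67.2%). PGC-1αf/f replicate 2, with the next highest erythroid mean (-1.17), read 0.10 for Cat. The part of these features in the Cat values was not tested. All 7 tested choroid plexus markers were well above background on every array, and their mean level ranged from -3.06 to 0.06 in PGC-1αf/f and from -2.95 to 0.57 in nPGC-1α. Without replicate 3 the Cat difference was 0.10.

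Glrx2, a mitochondrial and nuclear glutaredoxin that removes glutathione from protein thiols, was at 5.07, 4.78, 4.48, 4.76 and 4.62 in PGC-1αf/f and at 4.87, 4.59, 4.44, 4.43 and 4.75 in nPGC-1α on probe A_55_P2106078. Replicate 1 was the highest array of each group, as for Sod1. The difference was -0.13 (SE 0.13, limma adjusted p = 0.721), with an interval from -0.41 to 0.16. The second probe, A_66_P112815, ranged from 2.51 to 2.76 in PGC-1αf/f and from 2.45 to 2.71 in nPGC-1α, and its difference was -0.04 (SE 0.09, limma adjusted p = 0.883).

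**Figure D2:**
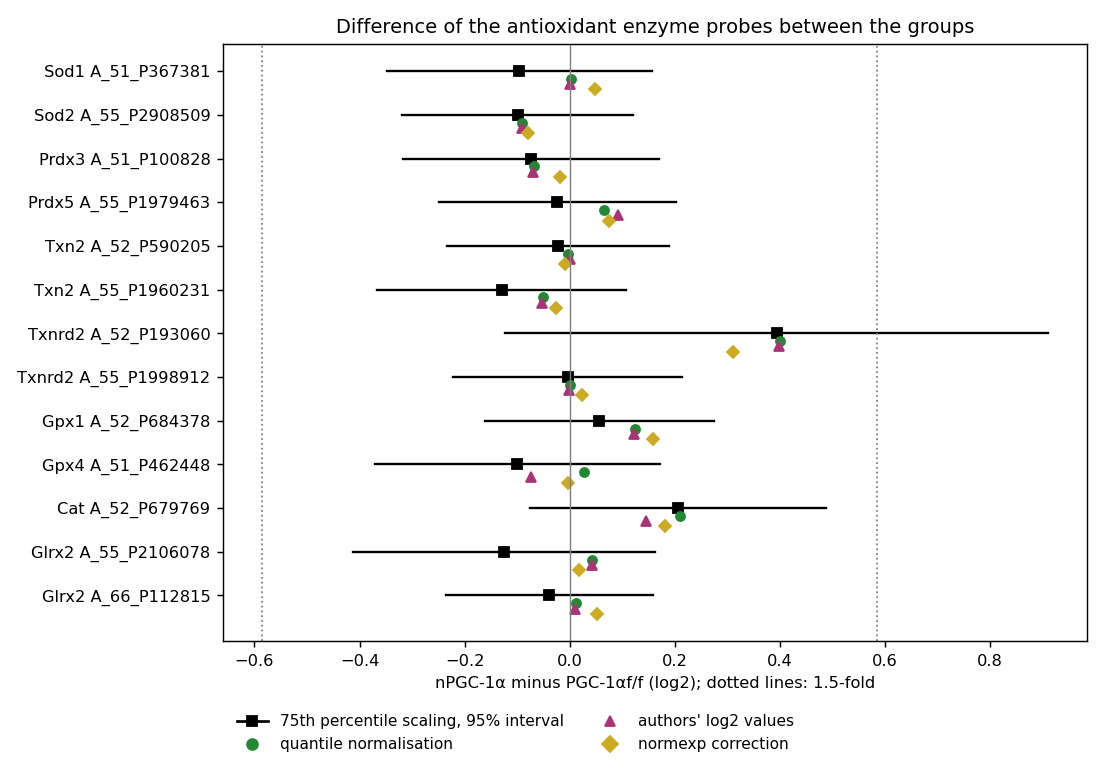
Difference of each probe between the groups (nPGC-1α minus PGC-1αf/f, log2). Black squares and lines give the estimate and 95% interval with the 75th percentile as the scale, coloured marks give the same difference under 3 other ways of processing, and dotted lines mark 1.5-fold. Every black interval crosses 0, and the marks of Sod1, Prdx5 and both Glrx2 probes lie at or above 0 under all 3 other ways.

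The sign of some small differences, those of Sod1, Prdx5, Gpx4, both Glrx2 probes and 1 probe each of Txn2 and Txnrd2, changed under at least 1 other scaling or background correction, whereas those of Sod2, Prdx3, Gpx1, Cat and the other Txn2 and Txnrd2 probes did not. The 4 member probes with a mean level of 3 or more (Sod1, Prdx5, Gpx4 and Glrx2 A_55_P2106078) had a median difference of -0.10, and all 967 probes of that brightness had a median of -0.12. Under quantile normalisation the same medians were 0.03 and -0.00067, and after normexp correction they were 0.03 and 0.01. On the individual arrays these 4 probes moved with the other bright probes. Their median deviation from the mean of all arrays was 0.38 on PGC-1αf/f replicate 1, where the other 963 bright probes were at 0.27, and -0.17 on nPGC-1α replicate 3, where the others were at -0.18. Under quantile normalisation the same deviations of the members lay between -0.05 and 0.06 on all 10 arrays. Over the 9 members with all values, PGC-1αf/f replicate 1 was the highest array for 5 probes and nPGC-1α replicate 3 the lowest for 3.

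**Figure D3:**
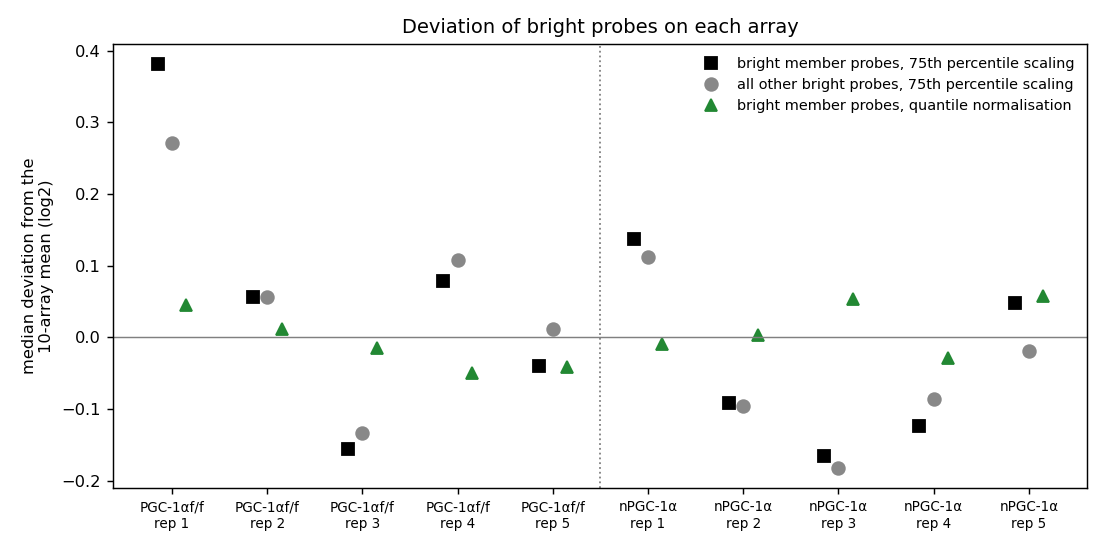
Median deviation (log2) of bright probes, those with a mean level of 3 or more, from their mean over the 10 arrays, by array. Black squares are the 4 bright member probes and grey circles the other 963 bright probes with the 75th percentile as the scale, and green triangles are the member probes after quantile normalisation. The black and grey marks rise and fall together from 0.38 and 0.27 on PGC-1αf/f replicate 1 to -0.17 and -0.18 on nPGC-1α replicate 3, and the green marks stay within 0.06 of 0.

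Within the arrays that lacked Y-linked transcripts, 4 of PGC-1αf/f and 2 of nPGC-1α, the median difference of the member genes was -0.07, beside -0.09 over all arrays. Sod1 was at -0.09 there, Sod2 at -0.11, Prdx3 at 0.10 and Gpx1 at 0.08. With the presence of Y-linked transcripts as a block the median was -0.08, and no member passed an unadjusted p of 0.05 in either fit. Among the 4 arrays with these transcripts, PGC-1αf/f is a single array, the one that stood apart above, and the median was -0.36. With the slide as a block the member median was -0.09, and on slide 1 alone it was -0.08.

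As a description of their shared course, the deviations from the group means were standardised and averaged over the 7 genes that had a tested probe with all 10 values. Sod1, Glrx2 and Txn2 followed this profile with Pearson r of 0.96, 0.94 and 0.92 over the 10 arrays, Gpx1, Txnrd2 and Prdx3 with 0.49, 0.45 and 0.38, and Sod2 with 0.16. Each of these genes is itself part of the profile. Of 14888 other genes, those with the closest course included Dctn4, a dynactin subunit (r = 0.984), the ribosomal protein gene Rpl38 (0.978), Uqcr10, a subunit of respiratory complex III (0.9754), and Oacyl (0.973). These points share the arrays and their scale, and the probes of Rpl38, Uqcr10 and Oacyl had a mean level above 3.

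Genes of the wider antioxidant network were read from the same fit. Of 112 genes on 5 lists, 106 had a tested probe, none passed an adjusted p of 0.05, 1 was higher at an unadjusted p of 0.05 (0.943%, beside 3.18% of all genes) and 6 were lower (5.66%, beside 5.03% of all genes).

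Among 29 tested genes of the same enzyme families and of glutathione supply, 0 were higher and 3 lower at an unadjusted p of 0.05. Over all genes, 3.18% were higher and 5.03% lower. The median difference of the list was -0.07. Msrb2, a mitochondrial methionine sulfoxide reductase, was at 2.06 ± 0.04 in PGC-1αf/f and 1.88 ± 0.05 in nPGC-1α (SD, n = 5 each). The Msrb2 difference was -0.18 (SE 0.07, limma adjusted p = 0.353). Its groups did not overlap, with 2.01 as the lowest PGC-1αf/f and 1.92 as the highest nPGC-1α array. Of all probes with a value on every array, 2.74% had groups that did not overlap. Msrb2, like G6pdx and Selenoi below, is named for the lowest unadjusted p of its list. That choice favours groups without overlap, and such groups were not counted over the lists. Gpx2, a glutathione peroxidase best known from gut epithelium, differed by -0.40 (SE 0.16, limma adjusted p = 0.366). Nnt, which makes mitochondrial NADPH for the glutathione and thioredoxin systems, differed by -0.30 (SE 0.13, limma adjusted p = 0.405). Under quantile normalisation the differences of Msrb2, Gpx2 and Nnt were -0.16, -0.38 and -0.30. The genes of this list with a level of 3 or more in both groups, Prdx2, Prdx1 and Txn1, differed by -0.17, -0.11 and -0.07. Under quantile normalisation they were at -0.08, -0.01 and 0.02.

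None of the 16 tested genes of the NRF2 pathway, the main transcriptional response to electrophiles, passed an unadjusted p of 0.05. Of all genes, 3.18% passed it as higher and 5.03% as lower. The median difference of the NRF2 list was -0.02. The lowest p-values belonged to G6pdx, which supplies NADPH (0.14, SE 0.07, limma adjusted p = 0.459), the heme oxygenase Hmox1 (0.33, SE 0.21) and the ferritin chain Fth1 (-0.18, SE 0.16). The groups of G6pdx did not overlap either, with 1.14 as the highest PGC-1αf/f and 1.18 as the lowest nPGC-1α array.

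Gpx1, Gpx4 and Txnrd2 depend on selenoprotein synthesis and selenium supply. Of 17 tested genes on a list of such factors and of other selenoproteins, 1 was higher and 1 lower at an unadjusted p of 0.05. Over all genes, 3.18% were higher and 5.03% lower. The median difference of the list was -0.0092. Selenoi, a selenoprotein of phospholipid synthesis, differed by 0.31 (SE 0.10, limma adjusted p = 0.284), and a second probe gave 0.24. On the first Selenoi probe the groups did not overlap, with -1.52 as the highest PGC-1αf/f value and -1.43 as the lowest of 4 nPGC-1α values. Sepsecs, which makes the selenocysteine tRNA, differed by -0.35 (SE 0.12, limma adjusted p = 0.286), and a second probe gave -0.10. The first Sepsecs probe was dim, at -4.83 in PGC-1αf/f and -5.18 in nPGC-1α. The elongation factor Eefsec differed by 0.18 (SE 0.16) and did not pass.

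Of 26 tested peroxisome genes, the compartment of catalase, 0 were higher and 1 lower, beside 3.18% and 5.03% of all genes. The list had a median of -0.02. Dao, a peroxisomal D-amino acid oxidase that makes hydrogen peroxide, differed by -0.60 (SE 0.17, limma adjusted p = 0.212) on the probe that stood for the gene. This dim probe was at -4.23 ± 0.24 in PGC-1αf/f and -4.82 ± 0.31 in nPGC-1α, and the second Dao probe gave 0.30. The fatty acid transporter Abcd2 was at -0.18 (SE 0.11) and the import factor Pex14 at 0.18 (SE 0.13), and neither passed.

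Of 18 tested regulators, Ppargc1a among them, 0 were higher and 1 lower, beside 3.18% and 5.03% of all genes. The list had a median of -0.04. Creb1, a transcription factor that can induce Ppargc1a, differed by -0.28 (SE 0.13, limma adjusted p = 0.413), with 4 probes between -0.66 and -0.10. Ppara was at -0.18 (SE 0.12) and Sp1 at -0.23 (SE 0.17), and neither passed. A second probe gave -0.08 for Ppara and 0.09 for Sp1. The partners of PGC-1α whose motifs were searched above gave -0.07 for Esrra, 0.07 for Nrf1 and -0.08 for Gabpa, and the lowest limma adjusted p of these was 0.778. A second Nrf1 probe gave 0.17, and the 3 Gabpa probes lay between -0.27 and 0.06.

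**Figure D4:**
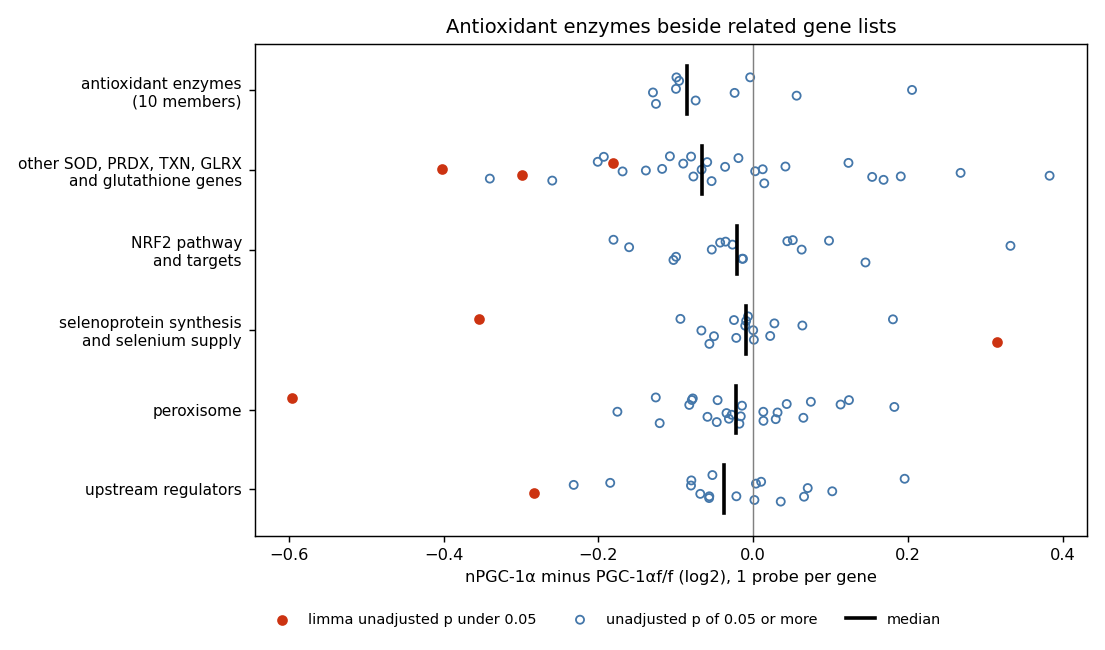
Difference of each gene (nPGC-1α minus PGC-1αf/f, log2, 1 probe per gene) for the 10 antioxidant enzymes and for 5 lists of related genes, with the median of each list as a black bar. Filled red points have an unadjusted limma p under 0.05, of which there are 7 among the 106 other genes and 0 among the members, and the medians lie between -0.09 and -0.0092.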

How the data were processed

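The deposited scanner files give a background-subtracted fluorescence intensity per spot, not normalised between arrays, and their headers name Feature Extraction 11.5.1.1. The authors also deposited log2 values of 41606 probes made from the same arrays, whose probe selection is not given in the sources used here, and these were used as an alternative. After removal of control spots and of outlier-marked spots, the spots of a probe were averaged on the log2 scale, and the log2 of each array's 75th percentile over all gene spots was subtracted. Probes well above background on all arrays with a value in at least 1 group, with at least 3 values per group, were kept, 39142 in all. Gene symbols came from the accessions through RefSeq (GRCm38.p6). The array was designed on another build, so probes have no coordinates here, and promoter sequences are from RefSeq on that assembly.

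A linear model with the group as its only term was fitted to each probe in limma 3.58.1 (R 4.3.3), and two-sided moderated p-values received the Benjamini-Hochberg adjustment across all probes kept. Exact permutation tests went through every split of the values into groups of the same sizes, and exact Mann-Whitney tests used scipy 1.17.1. For a gene with several probes, the tested probe with the brightest mean signal stood for it. The code was tested on simulated data. The text names the 10 members with every probe, Ppargc1a, the 3 genes of each other list with the lowest unadjusted p, the 5 genes closest to the members' profile (1 of them is not reported here), and, chosen after their values were seen, Esrra, Nrf1 and Gabpa. The members, lists and tests were chosen with earlier results of these data known. Alternatives changed the scaling, background correction, filters, blocks, variance model and arrays used. A planned normexp correction of mean pixel intensities was run on median intensities with an offset of 50, since the deposited columns hold medians. The labels do not state that each array is a different mouse, so p-values measure the spread between these samples, whose number limits the precision.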

Additional observations from a re-analysis of the deposited data

Results flagged for a closer look

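Of 24 groups of values examined, 1 held an array far from the others of its group by Dixon's criterion, where chance gives about 1.2 such groups. On the dim Txnrd2 probe A_52_P193060, nPGC-1α replicate 5 read -3.75, and the other 4 nPGC-1α arrays lay between -3.14 and -3.01.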

How the results depend on the processing

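Across 26 alternatives, no member probe passed an adjusted p of 0.05, and the lowest adjusted p was 0.205 with limma. Of 347 member fits, 4 had an unadjusted p under 0.05, all of Txnrd2 A_52_P193060 (with the slide as a block, with the replicate block, and without PGC-1αf/f replicate 3 or nPGC-1α replicate 5), which made the member count 1 in place of 0. The differences of Sod2, Txn2 A_55_P1960231, Cat and Txnrd2 A_52_P193060 kept their sign in all fits, and the cause of the sign changes below was not tested. The all-probe median moved by over 0.1 from 0 only among the arrays with Y-linked transcripts, where it was -0.11. The other limits are the number of arrays and the 3 or 4 values per group left for 4 probes. A further limit is that shares of spots above background and noise estimates did not overlap between the groups.

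The median of the member genes was -0.09 with the 75th percentile, 0.0154 under quantile normalisation, 0.0195 after normexp correction and -0.36 among the arrays with Y-linked transcripts. Under quantile normalisation Sod1 was at 0.0029, Prdx5 at 0.066, Gpx4 at 0.028, Glrx2 A_55_P2106078 at 0.042 and Glrx2 A_66_P112815 at 0.012. After normexp correction Sod1 was at 0.047, Prdx5 at 0.075, Txnrd2 A_55_P1998912 at 0.022 and the Glrx2 probes at 0.017 and 0.052. With the authors' log2 values Sod1 was at 0.00072, Prdx5 at 0.091, Txn2 A_52_P590205 at 0.0013 and the Glrx2 probes at 0.042 and 0.0097. Txnrd2 A_55_P1998912 was at 0.0087 with the median of detected probes as scale, 0.044 on slide 1, 0.039 with array weights, and 0.0038 without the arrays that held Y-linked transcripts. Txn2 A_52_P590205 was at 0.022 on slide 1. Prdx3 was at 0.045 with array weights, at 0.10 among the arrays without Y-linked transcripts, and at 0.036 without the 2 arrays numbered 1, an alternative chosen after seeing the data. Gpx1 was at -0.065 among the arrays with Y-linked transcripts. Leaving out 1 array at a time moved Sod1 between -0.15 and -0.015, Sod2 between -0.16 and -0.059, Prdx3 between -0.13 and -0.012, Txn2 A_55_P1960231 between -0.19 and -0.063, Txnrd2 A_52_P193060 between 0.21 and 0.53, Gpx4 between -0.16 and -0.053, Cat between 0.099 and 0.26 and the Glrx2 probes between -0.19 and -0.043 and between -0.073 and -0.0031. It moved Prdx5 between -0.062 and 0.013, Txn2 A_52_P590205 between -0.058 and 0.020, Gpx1 between -0.0042 and 0.093 and Txnrd2 A_55_P1998912 between -0.046 and 0.045. For Cat, the exact permutation test of 4 against 3 values gave p = 0.0286 where limma gave 0.131.

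Among all probes, 1 passed the adjusted threshold, 2 with the median as scale or among the arrays without Y-linked transcripts, 4 among the arrays with them, 10 with array weights, and 0 after normexp correction, with the slide, the replicate number or the Y-linked class as a block, with trended robust variance, with the filter on all 10 arrays, or without the arrays numbered 1. Without a filter on dim probes, with 54980 probes tested, 4619 passed, the cause was not tested, and 10748 passed an unadjusted p of 0.05, in place of 4662, and 1636 did so among the arrays without Y-linked transcripts. Leaving out 1 array gave 0 to 3 adjusted calls and 3102 to 6034 unadjusted calls, the fewest without PGC-1αf/f replicate 2. The number of genes of other lists past an unadjusted p of 0.05, 7 over all arrays, was 4 among the arrays with Y-linked transcripts, 2 among those without, and 3 to 7 with 1 array left out, with 3 without nPGC-1α replicate 3 or 4. These are counts, and which genes they hold was not compared.

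Arrays of the 2 groups share replicate numbers, and deviations from the group means correlated at 0.0776 to 0.356 between arrays of the same number, over 0.1 in 4 of 5 pairs, and at -0.276 to 0.241 between arrays of other numbers. The criterion for pairing was over 0.1 in every pair, which was not met, so the numbers were not taken to pair the arrays. With the replicate block, 0 probes of all and 1 member probe (Txnrd2 A_52_P193060, 0.39, limma unadjusted p = 0.0149) passed the adjusted and unadjusted thresholds, and 5 of 10 arrays correlated best with their own number.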
